A study of Mus musculus with 6 samples.

Results

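Type I interferons are cytokines that tell cells to prepare for a virus. They bind a receptor made of Ifnar1 and Ifnar2, whose kinases Jak1 and Tyk2 phosphorylate Stat2 and other STAT proteins. With Irf9 these form the complex ISGF3, which enters the nucleus and binds a DNA motif called the interferon-stimulated response element (ISRE) in front of its target genes. Resting T cells keep many of these targets at a basal level without any infection.

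The genes described here are 37 such type I interferon response genes, named as a list, of 39171 gene identifiers measured. In the library files 35 were found by gene name, and Ifit3 and Ifi27l2a, whose names are blank there, by Ensembl identifier. Of the 37, 36 had a mean of at least 1 FPKM (fragment abundance scaled by transcript length and sequencing depth) and were tested with the 11842 genes of the series that passed this filter. Mx1 did not pass.

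CD4+ T cells were taken by a magnetic isolation kit from the spleens of premenopausal C57BL/6 mice, and their mRNA was sequenced. Control mice were untreated, and AngII mice received angiotensin II, the peptide that raises blood pressure, at 800 ng/kg/min from an osmotic minipump for 14 days. Both groups started at 10 weeks of age, held 3 mice each and carried no transgene that the labels name. The design asks what angiotensin II does to the transcripts of these cells in females with ovarian function.

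The FPKM values of a library summed to 613674 to 717286; the number of reads is not given, so sampling error cannot be stated. Helper T cell markers (8 genes, among them Cd4, Cd3e and Trac) summed to 3189 to 3767 FPKM in Control and 3238 to 3547 in AngII. Other spleen cells were also detected. B cell markers (7 genes found) summed to 653.9 to 1149 FPKM in Control and 582.4 to 944.9 in AngII. All 7 had a lower value in AngII, as did 52.0% of all genes tested. Plasma cell markers summed to 216.9 to 456.6 FPKM in Control and 191.3 to 507.6 in AngII. Erythroid markers summed to 254.6 to 420.0 and 133.8 to 611.7, and conventional dendritic cell markers to 69.6 to 185.9 and 85.0 to 120.0. Macrophage and monocyte markers (12 genes, Cd14 listed at 0) summed to 1265 to 2188 FPKM in Control and 1563 to 3047 in AngII, with the highest sum in AngII replicate 2. Plasmacytoid dendritic cell markers (8 genes, none listed at 0 throughout) summed to 94.7 to 142.6 FPKM in Control and 102.3 to 123.5 in AngII. Granulocyte markers (10 genes, none listed at 0 throughout) summed to 10.6 to 50.4 FPKM in Control and 27.6 to 81.5 in AngII; 7 of the 8 tested had a higher value in AngII, with a median log2 fold change of 1.23. All 5 platelet markers had a higher value, with a median of 0.56. Their sums were 77.7 to 244.8 FPKM in Control, highest in replicate 3, and 154.0 to 205.3 in AngII. Of the 11 macrophage and monocyte markers tested, 9 had a higher value. Over all genes tested, 52.0% had a lower value. None of the markers of these lists passed the limma threshold. Bst2 is both in the plasmacytoid list and among the interferon response genes. It was the highest of that list, at 48.8 to 60.7 FPKM in Control and 49.7 to 54.4 in AngII. Irf8 was next, at 24.5 to 44.2 FPKM in Control and 27.3 to 38.0 in AngII. Siglech was at only 0.974 to 1.49 FPKM in Control and 0.822 to 1.36 in AngII. The plasmacytoid sums thus rest mostly on Bst2 and Irf8. In bulk RNA, fewer cells of a type and less RNA per cell cannot be told apart, and the part of other cells in the values below was not tested.

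The ISRE is the motif through which ISGF3 acts, so the windows in front of 6 members are shown first. The core searched was GAAANNGAAA on both strands, in the RefSeq promoter table (build GRCm38.p6, 250 bases before to 50 bases after each gene start). Capitals mark the core, which reads TTTCNNTTTC where it lies on the other strand. Isg15, Ifit1 and Oas1a are among the members with the lowest AngII values relative to Control, and Ifit3, Bst2 and Stat2 had differences nearer to 0.
Isg15, chr4:156200860-156200929, minus strand: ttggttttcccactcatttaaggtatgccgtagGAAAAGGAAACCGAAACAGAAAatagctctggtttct
Ifit1, chr19:34640759-34640828, plus strand: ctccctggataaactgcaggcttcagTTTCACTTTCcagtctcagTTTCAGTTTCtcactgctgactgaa
Oas1a, chr5:120907526-120907595, minus strand: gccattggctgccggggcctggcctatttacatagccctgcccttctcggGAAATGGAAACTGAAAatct
Ifit3, chr19:34583362-34583431, plus strand: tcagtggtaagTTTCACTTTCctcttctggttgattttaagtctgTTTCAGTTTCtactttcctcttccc
Bst2, chr8:71537572-71537641, minus strand: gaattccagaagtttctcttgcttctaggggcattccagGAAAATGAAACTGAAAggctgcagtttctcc
Stat2, chr10:128270248-128270300, plus strand: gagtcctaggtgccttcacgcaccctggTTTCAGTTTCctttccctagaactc

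All 6 windows lie upstream of their gene and overlap no gene of the GENCODE M21 annotation. Isg15 carries 3 overlapping matches between positions -78 and -57 from its start, and Oas1a and Bst2 carry 2 overlapping matches each. Ifit1 and Ifit3 each carry 2 separate matches on the other strand, at -104 to -95 and -85 to -76 in Ifit1 and at -156 to -147 and -122 to -113 in Ifit3. Of the 28 members with an entry in the promoter table, 13 held the core (46.4%), against 1079 of 27025 genes (3.99%). Members with the core but not shown were Ddx58, Eif2ak2, Ifi203, Ifih1, Rsad2, Shisa5 and Trim30a. The palindromic core TTCNNNGAA of gamma-activated sites was in 7 members (25.0%) and in 9.55% of genes. A match describes letters only, and a window without one shows nothing about binding.

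**Figure D1:**
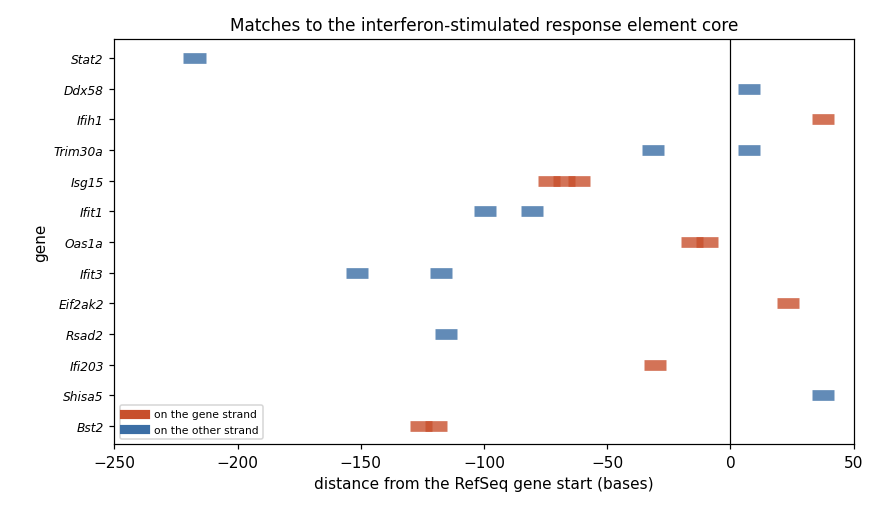
Positions of the ISRE core in the RefSeq windows of the 13 members that hold it, as distance in bases from the gene start (line at 0), coloured by strand. Most matches lie before the start, while those of Ddx58, Ifih1, Eif2ak2 and Shisa5 and 1 of the 2 in Trim30a lie just after it.

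The type I interferon response genes were expressed in every library, at levels in AngII close to those in Control. Of the 36 genes tested, 30 had a lower value in AngII (28 with median-of-ratios or quantile scaling), as did 52.0% of all genes tested. This count rested on AngII replicate 2: without it, 21 of 36 members had a lower value (48.3% of all genes), and with limma library weights 20 of 36 (50.5% of all genes). The differences were small: the median log2 fold change was -0.06 (-0.02 without AngII replicate 2), and the largest in size was -0.22 (Xaf1). In 5 genes every AngII library lay below every Control library, as was so for 3.48% of all genes: Ifit1, Isg15, Xaf1, Ifi27l2a and Irf7. In 0 of 36 members every AngII library lay above Control, against 2.36% of all genes. No member passed the threshold for single genes.

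Differences were tested by limma on log2(FPKM + 1) across all 11842 genes, with a Benjamini-Hochberg adjusted p under 0.05 as the threshold. Across all genes 0.0338% passed, and among the members 0 of 36 did, with a smallest adjusted p of 0.9999. At an unadjusted p under 0.05 there were 2 members, Ifit1 and Xaf1, against 1.76% of all genes. The median log2 fold change of all genes was -0.004. In the authors' deposited table, all 37 members had a tested row and none was significant, with p from 0.0813 (Ifi27l2a) to 0.9983 (Dtx3l). The row of Irf9 also covers Rnf31 and that of Ifi203 also covers Mndal, so neither member was tested alone there.

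The precision of 3 against 3 libraries bounds these differences. The 95% interval of a member reached between 0.12 and 0.40 to either side of its log2 fold change, with a median of 0.24. For 35 of 36 members the whole interval lay within 0.5 of 0, a fold of 1.41 on the log2(FPKM + 1) scale. The exception was Oas1a, whose interval ran from -0.51 to 0.08.

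**Figure D2:**
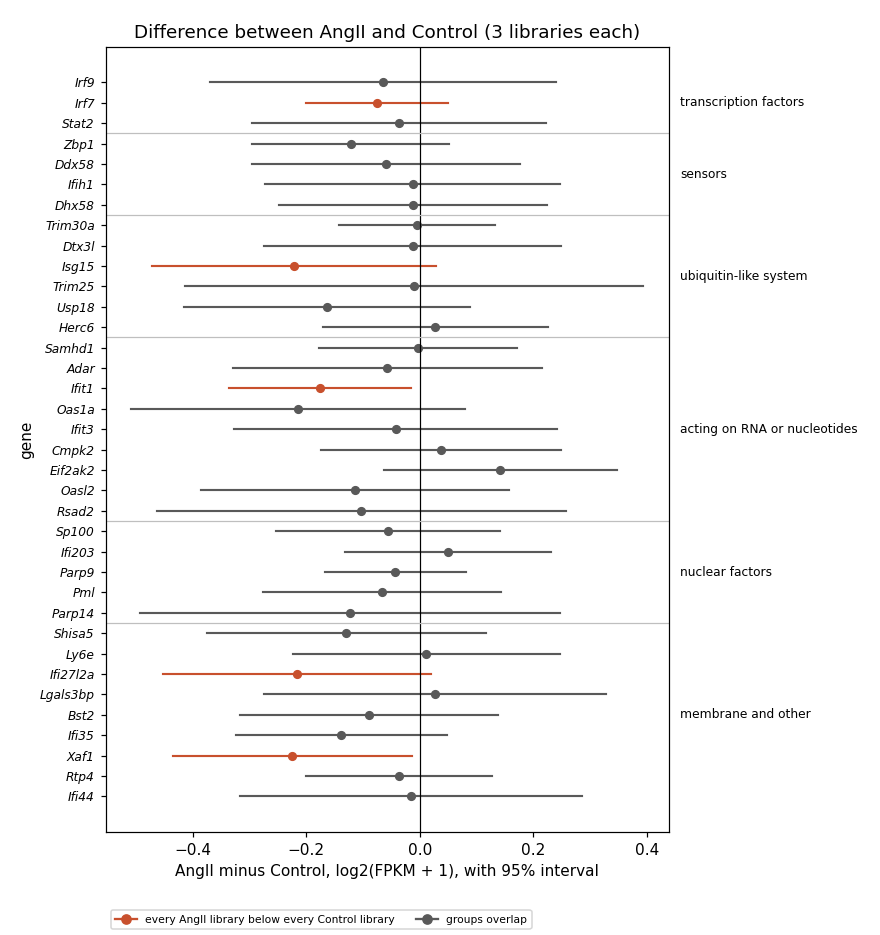
AngII minus Control in log2(FPKM + 1) for the 36 members tested, ordered by role, with limma 95% intervals (3 libraries per group). The 5 genes in orange are those whose groups did not overlap; the intervals of all members but Ifit1 and Xaf1 include 0.

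Levels spread widely between the members. FPKM is normalised to length, so levels can be set beside each other. The mean over the 6 libraries ran from 0.981 FPKM for Mx1 to 1825 for Shisa5, with 7 members at 100 FPKM or more and 26 at 10 or more. Shisa5, Ly6e, Sp100, Ifi27l2a, Samhd1, Ifi203 and Lgals3bp were the highest, and Mx1, Ifi44, Rsad2 and Oasl2 were the 4 under 5 FPKM. Mx1 encodes a dynamin-like GTPase that blocks influenza virus, and C57BL/6 mice carry a defective copy of it. Control libraries had 0.769, 1.23 and 1.15 FPKM of Mx1 and AngII libraries 0.845, 1.08 and 0.820, with overlapping groups (here and below, libraries are given in the order of replicates 1, 2 and 3).

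**Figure D3:**
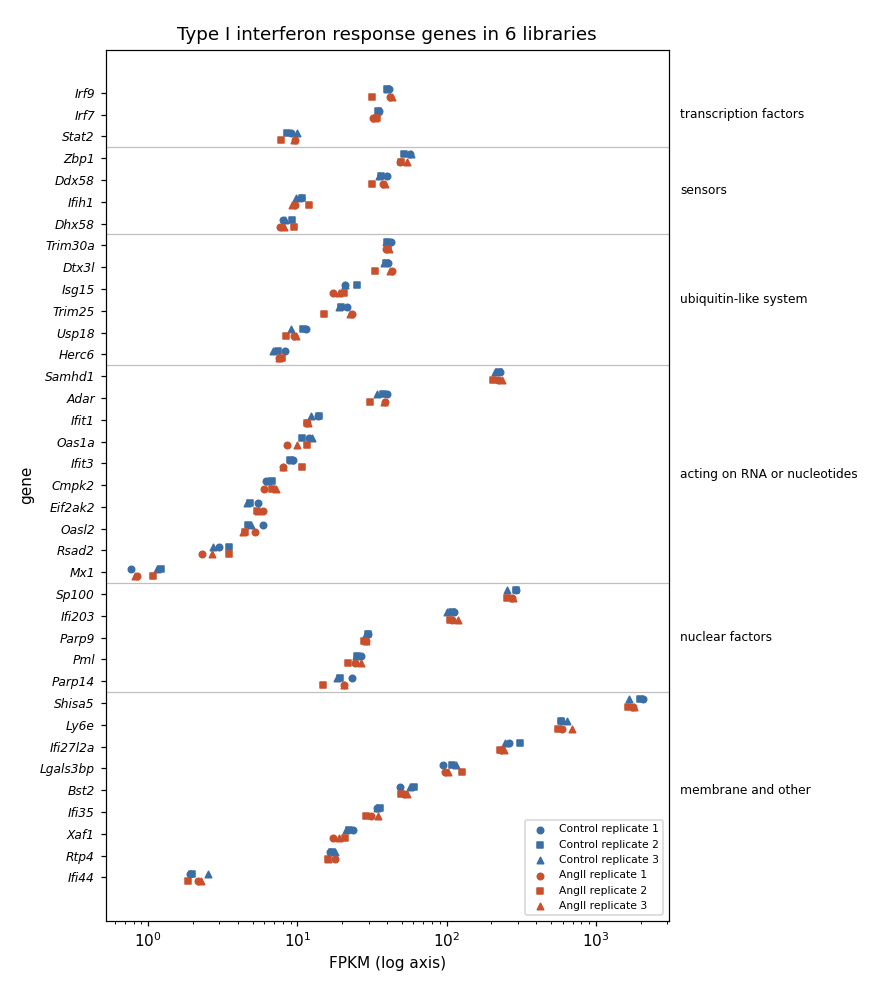
FPKM (log axis) of the 37 members in each library, ordered by role and level; blue is Control, orange AngII, and the symbol gives the replicate. The range between genes, from Mx1 at about 1 FPKM to Shisa5 at 1649 or more, is far wider than that between libraries of any gene.

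Among the transcription factors, Irf7, which drives the amplifying wave of interferon alpha, was at 35.3, 34.7 and 34.4 FPKM in Control and 32.1, 34.0 and 33.0 in AngII. Its 6 libraries lay close together and the groups did not overlap, yet the log2 fold change was only -0.08 (SE 0.051, limma adjusted p = 0.9999). Irf9, the DNA-binding subunit of ISGF3, was at 41.1, 39.7 and 40.1 FPKM in Control and 42.0, 31.5 and 43.1 in AngII. AngII replicate 2 was the lowest of the 6, and the other two AngII libraries were the highest. Without AngII replicate 2, the log2 fold change of Irf9 went from -0.07 to 0.08. Stat2, which carries the activation domain of ISGF3, was at 9.05, 8.53 and 9.98 FPKM in Control and 9.69, 7.70 and 9.47 in AngII. Its groups overlapped, again with AngII replicate 2 lowest (log2 fold change -0.04, and 0.06 without that library). Exons of Irf7 overlap those of Phrf1 on the opposite strand, and exons of Irf9 those of Rnf31. Reads may be shared there, since strand-specific counting is not stated.

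The sensors recognise foreign nucleic acid in the cytoplasm. Zbp1, a sensor of Z-form RNA and DNA that can start necroptosis, was the most abundant, at 56.8, 52.0 and 57.7 FPKM in Control and 48.9, 49.5 and 54.4 in AngII. Its groups overlapped only through AngII replicate 3 and Control replicate 2 (log2 fold change -0.12, SE 0.071, limma adjusted p = 0.9999). Ddx58, which encodes RIG-I, the sensor of short RNA with a triphosphate end, was at 40.1, 36.6 and 35.3 FPKM in Control and 37.6, 31.5 and 38.5 in AngII. The lowest value was in AngII replicate 2 (log2 fold change -0.06, and 0.03 without it). Ifih1, which encodes MDA5, the sensor of long double-stranded RNA, was at 10.6, 10.7 and 9.71 FPKM in Control and 9.64, 11.98 and 9.24 in AngII. Dhx58, which encodes their regulator LGP2, was at 7.97, 9.15 and 8.28 FPKM in Control and 7.66, 9.46 and 8.09 in AngII. For both Ifih1 and Dhx58, AngII replicate 2 was the highest of the 6 libraries, the reverse of its place in Ddx58. Their log2 fold changes were both -0.01.

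Isg15 encodes a ubiquitin-like protein that is attached to other proteins and also secreted (chr4:156199424-156200818, minus strand, GRCm38). It was at 20.8, 25.2 and 20.9 FPKM in Control and 17.3, 20.5 and 19.1 in AngII. The gap between the groups was narrow, since AngII replicate 2 lay just under Control replicate 1. The ratio of the group means was 0.85 (log2 fold change -0.22, SE 0.102, limma adjusted p = 0.9999). Usp18, which removes Isg15 from proteins and damps signalling at Ifnar2, was at 11.3, 10.9 and 9.11 FPKM in Control and 9.49, 8.35 and 9.78 in AngII. Its groups overlapped at Control replicate 3 (log2 fold change -0.16). The remaining members of this class were Herc6, a ligase for Isg15, and the ubiquitin ligases Trim25, which activates RIG-I, Trim30a and Dtx3l. Their log2 fold changes lay between -0.01 and 0.03. Trim25 ranged from 15.2 FPKM in AngII replicate 2 to 23.1 in AngII replicate 1, and Dtx3l from 32.9 to 42.8 in the same libraries.

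The effectors that act on RNA or nucleotides held 10 members. Ifit1, which binds viral RNA without a methylated cap (chr19:34640871-34650009, plus strand), was at 13.7, 13.9 and 12.3 FPKM in Control. In AngII it was at 11.6, 11.6 and 11.7. The 3 AngII libraries were nearly equal and all lay below Control (log2 fold change -0.18, SE 0.065, limma adjusted p = 0.9999). Oas1a, a synthetase of oligoadenylates made on double-stranded RNA, was at 11.97, 10.7 and 12.4 FPKM in Control and 8.46, 11.6 and 9.99 in AngII. AngII replicate 2 lay within the Control range and the other two below it (log2 fold change -0.21). Oasl2, an OAS-like protein, was at 5.85, 4.65 and 4.90 FPKM in Control and 5.23, 4.45 and 4.30 in AngII, with overlap.

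Eif2ak2, which encodes PKR, the kinase that stops translation in infected cells, had the highest log2 fold change of the members (0.14, SE 0.084). It was at 5.43, 4.82 and 4.61 FPKM in Control and 5.89, 5.38 and 5.41 in AngII. Only Control replicate 1 reached the AngII range. Exons of Eif2ak2 overlap those of n-R5s29 and Gm26637 on the opposite strand, so reads may be shared there. The other genes of this class that were tested were Ifit3, a partner of Ifit1, Adar, an RNA-editing deaminase, Samhd1, which degrades deoxynucleotides, Rsad2 and Cmpk2. Their log2 fold changes lay between -0.10 (Rsad2) and 0.04 (Cmpk2), and all their groups overlapped. Rsad2 encodes viperin, which makes a chain-terminating nucleotide, and Cmpk2 beside it encodes a mitochondrial nucleotide kinase; they are neighbours on chromosome 12 and are read in opposite directions. Ifit3 averaged 9.15 ± 0.193 FPKM over the Control and 8.93 ± 1.56 over the AngII libraries, and Samhd1 221.2 ± 9.35 and 220.9 ± 14.9 (n = 3 each, SD).

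The nuclear members differed little. Sp100, a scaffold of nuclear bodies, was at 293.9, 291.1 and 253.4 FPKM in Control and 275.0, 253.2 and 276.9 in AngII, with broad overlap (log2 fold change -0.06). Pml, which organises the same bodies, had a log2 fold change of -0.07. Parp9, a macrodomain protein that pairs with Dtx3l, was the steadiest of the class, at 29.9, 29.8 and 28.8 FPKM in Control and 28.8, 27.9 and 29.0 in AngII. Parp9 and Dtx3l lie head to head on chromosome 16 with overlapping exons, so part of their reads may be shared. The ADP-ribosyltransferase gene Parp14 lies close by and ranged from 14.95 FPKM in AngII replicate 2 to 23.4 in Control replicate 1 (log2 fold change -0.12). Ifi203, a DNA-binding protein of the PYHIN family, had a log2 fold change of 0.05, but its exons overlap those of Mndal and its values are uncertain.

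Among the membrane, secreted and other induced genes, Xaf1 and Ifi27l2a stood below Control in each AngII library. Xaf1, an antagonist of the apoptosis inhibitor XIAP (chr11:72301629-72313733, plus strand), was at 23.6, 22.3 and 21.2 FPKM in Control and 17.2, 20.9 and 19.0 in AngII. AngII replicate 2 was just under Control replicate 3 (log2 fold change -0.22, SE 0.086, limma adjusted p = 0.9999). Ifi27l2a, a small hydrophobic interferon-induced protein (chr12:103442167-103443680, minus strand), was at 261.1, 311.6 and 247.0 FPKM in Control and 232.3, 228.2 and 241.4 in AngII. The Control libraries spread more than the AngII ones, and the nearest libraries of the groups were Control replicate 3 and AngII replicate 3 (log2 fold change -0.22, SE 0.097, limma adjusted p = 0.9999).

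Shisa5, a membrane protein linked to apoptosis, was at 2080, 1980 and 1672 FPKM in Control and 1772, 1649 and 1800 in AngII. Control replicate 3 lay inside the AngII range, and the log2 fold change was -0.13. Ly6e, a surface protein that affects virus entry, was at 587.6, 585.7 and 644.4 FPKM in Control and 593.4, 556.2 and 688.0 in AngII. Its highest and lowest library were both AngII (log2 fold change 0.01, and -0.05 with quantile normalization). Bst2, which encodes tetherin and holds budding viruses on the cell, was at 48.8, 60.7 and 56.9 FPKM in Control and 51.6, 49.7 and 54.4 in AngII. All AngII values lay within the Control range (log2 fold change -0.09).

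Ifi35, a leucine zipper protein, was at 34.0, 35.7 and 34.1 FPKM in Control and 30.9, 29.0 and 34.4 in AngII, with overlap through AngII replicate 3 (log2 fold change -0.14). Lgals3bp, a secreted glycoprotein, Rtp4 and Ifi44 had log2 fold changes of 0.03, -0.04 and -0.02, and their groups overlapped.

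AngII replicate 2 stood apart within the list. It held the lowest value of 18 of the 36 members tested, against 29.8% of all genes, and the highest of 4, Ifit3, Lgals3bp, Ifih1 and Dhx58, against 21.9% of all genes. Relative to the mean of the other 5 libraries, it was at -0.45 in log2(FPKM + 1) for Trim25, -0.42 for Parp14, -0.38 for Irf9, -0.29 for Adar and -0.28 for Dtx3l. It was at 0.28 for both Lgals3bp and Ifit3. Control replicate 1 held the highest value of 12 members, against 15.7% of all genes. The library weights of limma, which measure how closely each library follows its group over all genes, were lowest for AngII replicate 2, at 0.218, and otherwise between 0.552 and 2.99. AngII replicate 2 also had the highest marker sums of macrophages and monocytes (3047 FPKM), plasma cells (507.6) and stromal and endothelial cells (58.9). Its marker sums of NK cells (123.0 FPKM) and CD8 T cells (9.73) were the lowest. The part of these cells in the pattern was not tested.

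**Figure D4:**
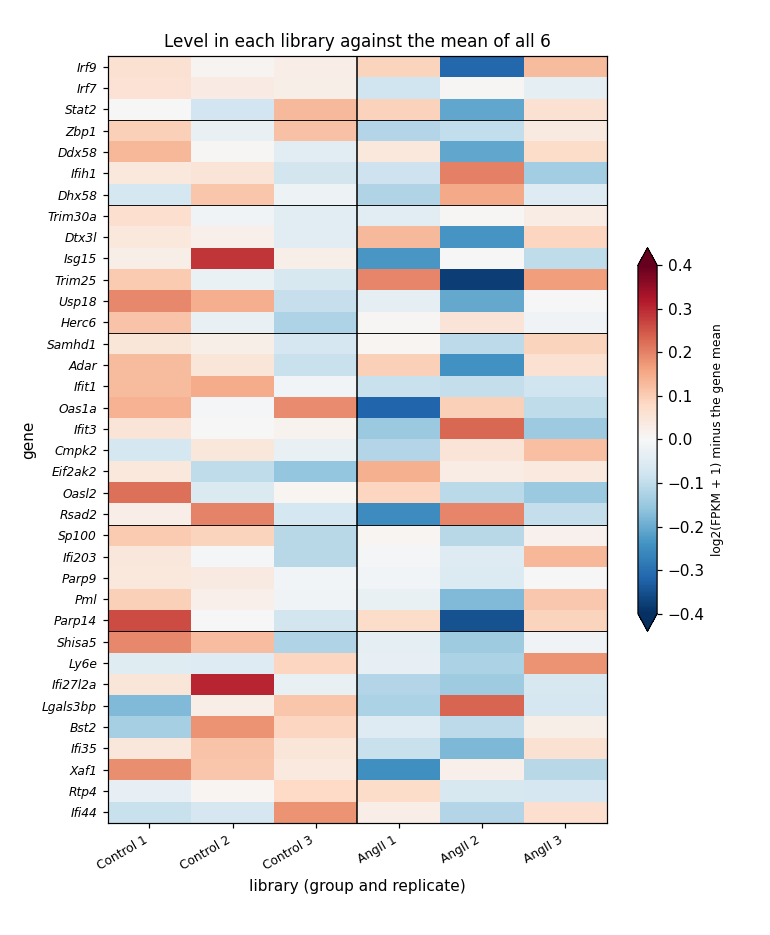
Level of each tested member in each library as log2(FPKM + 1) minus the mean of the gene over all 6 libraries (red above, blue below; colours end at 0.4). AngII replicate 2 is blue for Trim25, Parp14, Irf9, Adar and Dtx3l and red for Ifit3, Lgals3bp and Ifih1, while AngII replicates 1 and 3 resemble each other in these genes.

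Without AngII replicate 2, 11 of 36 members turned sign, and the share of all genes that did so is not given here. In this setting 27.7% of all genes had groups that did not overlap, higher or lower. Groups of the 2 remaining AngII libraries and Control did not overlap for 9 members on the lower side, where 11.8% of all genes did so. These were Oas1a (-0.32), Xaf1 (-0.29), Isg15 (-0.28), Rsad2 (-0.23), Ifi27l2a (-0.20), Ifit1 (-0.17), Ifit3 (-0.17), Ifih1 (-0.12) and Irf7 (-0.10). On the higher side they were Trim25 (0.18), Dtx3l (0.10) and Irf9 (0.08), where 15.9% of all genes did so. None passed limma in this setting, where 4 of 36 members had an unadjusted p under 0.05, as did 7.75% of all genes, and the smallest adjusted p was 0.632.

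The differences were also set beside the ISRE core. Of the 13 with it, 11 had lower values in AngII, with a median log2 fold change of -0.06, and every AngII library lay below Control for 2 of them. Of the 15 tested members whose window lacked it, 12 had lower values, also with a median of -0.06, and the AngII libraries lay below Control for 2. Over all genes, 52.0% had lower values and 3.48% had every AngII library below Control. A further 8 tested members have no entry in the promoter table. Isg15 and Ifit1 shared the core with Stat2 and Trim30a, whose log2 fold changes were -0.04 and -0.005. No test was made of this split.

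The pathway upstream of these genes was described from further lists. Of 21 interferon ligand genes, 17 were found. Of these, 14 were listed at 0 in all 6 libraries, including Ifnb1 and every interferon alpha gene found. A listed 0 may also stand for an estimate that failed, so it does not show absence. Only Ifng, the type II interferon of helper and NK cells, passed the filter. It was at 24.7, 29.8 and 28.5 FPKM in Control and 13.5, 28.3 and 16.8 in AngII. AngII replicates 1 and 3 were well below Control, but AngII replicate 2 lay within its range (log2 fold change -0.54, SE 0.258, limma adjusted p = 0.9999). NK cells also make Ifng. Their markers (7 genes, none listed at 0 throughout) summed to 125 to 200.7 FPKM in Control and 123 to 153 in AngII. All 7 had a lower value in AngII, with a median log2 fold change of -0.28, and none passed the limma threshold. Over all genes tested, 52.0% had a lower value. The part of NK cells in the Ifng values was not tested.

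The receptor side was present at similar levels in both groups. Ifnar1 averaged 27.7 ± 1.54 FPKM over the Control and 29.0 ± 3.00 over the AngII libraries, and Ifnar2 39.4 ± 1.66 and 40.7 ± 6.27 (n = 3 each, SD). The kinase genes Jak1 and Tyk2 had log2 fold changes of -0.03 and -0.04, and the type II receptor gene Ifngr1 0.04. Of the 9 receptor, kinase and STAT genes tested, none passed, 5 had lower and 4 higher values, and their median was -0.004.

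A list of 14 genes covered inhibitors of interferon signalling, along with Isg20, Trex1, Herc3 and enzymes of the Isg15 conjugation system. None passed, and 9 had lower and 5 higher values, with a median of -0.03 (52.0% of all genes had lower values). For 2 of the 14 every AngII library lay below every Control library, against 3.48% of all genes. Socs3, a feedback inhibitor of JAK kinases, was at 35.3, 32.8 and 34.9 FPKM in Control and 28.0, 29.5 and 29.1 in AngII. The groups were apart, and it was the only gene of this list at an unadjusted limma p under 0.05 (1.76% of all genes). However, its limma adjusted p was 0.9999 (log2 fold change -0.24). Uba7, the activating enzyme for Isg15, was also lower in every AngII library, with a mean of 25.6 ± 0.348 in Control against 23.4 ± 1.76 in AngII (FPKM, n = 3 each, SD) and a log2 fold change of -0.13. Irf2, a repressor of interferon targets, and Herc3 had log2 fold changes of -0.09 and 0.22.

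Of 19 genes of nucleic acid sensing and IRF activation, none passed, and 13 had higher and 6 lower values in AngII, with a median of 0.04. Over all genes tested, 52.0% had lower values. The single-stranded RNA receptor gene Tlr8 had a log2 fold change of 0.27, the adaptor gene Traf3 0.08, Irf1 -0.11 and Nlrc3, an inhibitor of STING signalling, -0.09, all with overlapping groups. A further 84 interferon-stimulated genes were tested, of which 48 had lower and 36 higher values, with a median of -0.02, and none passed. For 3 of the 84 every AngII library lay below every Control library (Rnf213, Oasl1 and Nmi), and for 1 above (Pnpt1). The shares over all genes were 3.48% below and 2.36% above. Rnf213, a giant ubiquitin ligase, was at 37.8, 35.5 and 29.5 FPKM in Control and 22.0, 23.2 and 29.3 in AngII. The groups met at Control replicate 3 and AngII replicate 3 without overlap (log2 fold change -0.45, SE 0.139, limma adjusted p = 0.9999). Oasl1, a translational inhibitor of Irf7, was at 5.99, 6.40 and 5.87 FPKM in Control and 5.36, 2.23 and 5.70 in AngII. AngII replicate 2 was far below the other 5 libraries, and the groups did not overlap (log2 fold change -0.46). Pnpt1, a mitochondrial RNA nuclease, had a log2 fold change of 0.12, with every AngII library above Control.

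**Figure D5:**
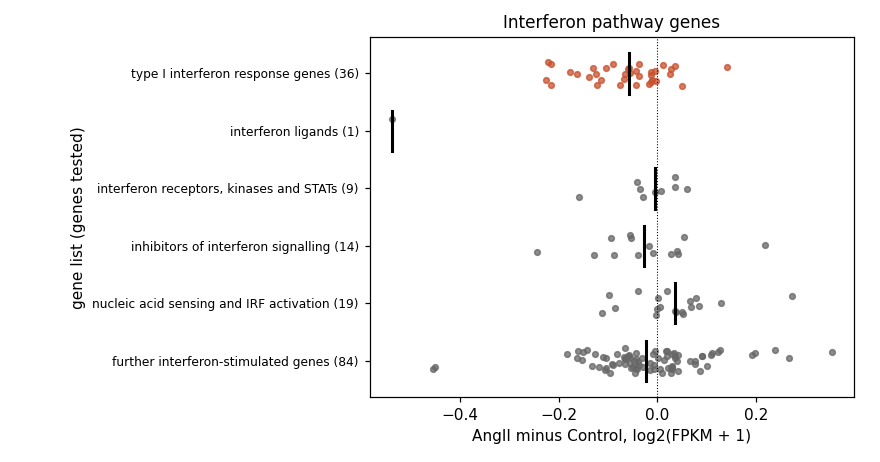
AngII minus Control in log2(FPKM + 1) for the members and 5 pathway lists, with 1 point per gene tested and the median as a bar; the vertical scatter within a list has no meaning. The members' median lies at -0.06 and those of the lists of more than 1 gene between -0.03 and 0.04.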

How the data were processed

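Gene expression was measured by RNA sequencing in 6 libraries, 1 per sample. The authors deposited 1 table of FPKM per library; per the submitters' processing notes the tools were Trimmomatic 0.32, TopHat2 2.1.1 and Cuffdiff on build GRCm38.p3, and their settings and the annotation release are not stated in the sources used here. A series-wide table that the authors deposited gives p-values and q-values for 2 conditions named by number only, per the file headers, so no direction was taken from it.

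Symbols and positions came from GENCODE M21 (37605 of 39171 identifiers) and promoters from RefSeq. Genes averaging 1 FPKM or more were tested as log2(FPKM + 1), unscaled, using limma 3.58.1 in R 4.3.3 (eBayes with trend, two-sided). The fit was checked on simulated data only with changes larger than that of any member. Its power for differences of the size seen here was therefore not tested. Fold changes on the log2(FPKM + 1) scale understate those of low genes. Scripts ran in Python 3.11.15 with pandas 2.3.3, numpy 2.4.6 and matplotlib 3.10.9. Exons of 15 members overlap those of another gene, and strand-specific counting is not stated, so reads may be shared. Besides those named above as overlapping, these members are Rtp4, Usp18, Ifi35, Dhx58, Parp14, Adar, Sp100, Herc6 and Pml. The labels do not tie replicates to separate preparations beyond naming 3 mice per group. No 2 libraries were duplicates.

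The members, lists and tests were chosen with earlier results of these data known. Library values are given for transcription factors, sensors, the 12 other members of smallest p and the 4 of highest mean, and in each pathway list the 4 genes of smallest p and the main receptors and kinases are named; values of further members were added after they were seen. Of the pathway genes that this rule picks, 2 are not reported here. Alternatives were pseudocounts of 0.1 and 5, no minimum or a minimum mean of 5 FPKM, median-of-ratios and quantile scaling, eBayes without trend, library weights, a replicate block, and leaving out each library.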

Additional observations from a re-analysis of the deposited data

How the results depend on the processing

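No member passed the limma threshold under any of the 15 alternatives, where the smallest adjusted p of a member was 0.275 (Xaf1, library weights). Over all genes the count past the threshold was 4, with 7 when low values were not filtered and 4 to 9 when 1 library was left out (8 without Control replicate 1, 7 without Control replicate 3 and 9 without AngII replicate 3). Members with a lower value numbered 30 of 36, 28 with either median-of-ratios or quantile scaling, 20 with library weights, and 21 without AngII replicate 2. Members whose groups did not overlap numbered 5 (5.84% of all genes), but 3 with quantile normalization (5.87%), and 7 to 12 with 1 library left out: 7 without Control replicate 2 (9.89% of all genes), 12 without AngII replicate 2 (27.7%). The median log2 fold change of the members stayed below 0 in all alternatives run, from -0.08 without AngII replicate 1 to -0.02 without AngII replicate 2. With library weights 12 of 36 members had the opposite sign, among them Ddx58 (0.0261), Irf9 (0.0651) and Stat2 (0.0946); with quantile normalization 4 had, among them Ly6e (-0.0511), and with median-of-ratios scaling 2. The share of all genes that turned sign is not given for any setting. With 1 library left out, 19 of 36 members turned sign at least once, 11 of them without AngII replicate 2. Of the 21 members whose library values are given by rule, these were 6: Ddx58 (-0.112 to 0.0288), Dhx58 (-0.0916 to 0.0444), Ifih1 (-0.117 to 0.0536), Irf9 (-0.145 to 0.0756), Ly6e (-0.0752 to 0.0779) and Stat2 (-0.0914 to 0.0571). With the replicate number as a block, 3 genes passed and 30 members had lower values; same-numbered libraries did not deviate together (r = -0.08, -0.02 and -0.04 across genes), so the numbers are not taken to pair the mice. The cause of these shifts was not tested. The number of reads is not known, so the depth behind low genes such as Mx1 and Ifi44 cannot be given.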
